A study of Mus musculus with 92 samples.

Results

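Let-7e and let-7d are microRNAs of one seed family, and the libraries described here compare mouse embryos injected with let-7e (Let7e) against embryos injected with let-7d (Let7d). The study they belong to asks about let-7, mitochondria and metabolic traits passed on by fathers, and in it wild-type C57BL/6N zygotes, labelled in every group as from IVF (in vitro fertilisation), received let-7e, let-7d, a microRNA labelled mi699a-5p or a negative control (NC) by microinjection. At the 8-cell stage the embryos were taken apart and each blastomere was sequenced with Smart-seq2, which amplifies full-length cDNA and attaches no molecular identifiers, so that counts are reads. All columns of the deposited raw counts labelled Let7e or Let7d were taken, and the reads of all cells with the same mouse id, the animal label of a cell, were added up. This gave 20 Let7e cells from 4 mouse ids, with 6, 8, 2 and 4 cells in replicates 1 to 4, and 18 Let7d cells from 3 mouse ids, with 5, 6 and 7 cells. These 38 cells stood among 81 in the series, which also held 21 mi699a-5p cells from 4 mouse ids and 22 NC cells from 3. The dose and the form of the injected molecules are not given in the labels. Nor do they say if a mouse id stands for an embryo, its dam or a donor, and the p-values below measure only the spread between mouse ids.

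MicroRNAs guide Argonaute proteins to messenger RNAs, mostly by pairing of their seed with a site in the 3' untranslated region (UTR), and the targeted messenger RNA is then destabilised or translated less. The let-7 family is known for promoting differentiation and holding back growth, through targets such as the RNA-binding proteins Lin28a and Lin28b, which in turn block the maturation of let-7. Members of the family share the seed and differ in a few other bases, so that their target sets are expected to overlap widely.

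The mature 5p arms of both microRNAs are shown because every comparison below rests on how little they differ. They are RefSeq sequences on GRCm38.p6, with the seed (bases 2 to 8) in capitals. Mirlet7e lies at chr17:17830366-17830387 on the + strand and Mirlet7d at chr13:48536078-48536099 on the - strand.
let-7e-5p: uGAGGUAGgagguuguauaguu
let-7d-5p: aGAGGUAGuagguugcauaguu
Of 22 bases 19 were identical, and the 3 substitutions, written as the let-7e base, the position counted from 1 at the 5' end and the let-7d base, were U1A, G9U and U16C. None lies in the seed GAGGUAG, which 11 mature mouse microRNAs of the table share. In a target the seed pairs with the 7-base site CTACCTC. In letters alone, with U1A, the 8-base site CTACCTCA is complementary to let-7e through base 1, and CTACCTCT to let-7d. Pairing of base 1 with a target was not measured, so these letters do not show which site either microRNA uses better.

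One site from each of a few known targets follows, because these show where the microRNAs can differ outside the seed. Each is the 30-base stretch that ends with the base after the seed match, read on the transcript's strand from the longest 3' UTR in GENCODE M21 (GRCm38), with the seed match in capitals.
Trim71, chr9:114512472-114512501, - strand: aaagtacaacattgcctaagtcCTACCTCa
Lin28a, chr4:134005189-134005218, - strand: ttggagtgcacagcctgttgaaCTACCTCa
Igf2bp1, chr11:95961778-95961807, - strand: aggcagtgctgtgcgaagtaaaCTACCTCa
Hmga2, chr10:120364224-120364253, - strand: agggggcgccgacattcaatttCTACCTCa
Map4k3, chr17:80580813-80580842, - strand: catggccaaaataatttagttaCTACCTCa
The Trim71 site shown was predicted to pair with let-7e at -20.9 kcal/mol and with let-7d at -15.9 kcal/mol. The order was the other way round for the Lin28a site shown, at -18.9 kcal/mol with let-7e and -21.6 kcal/mol with let-7d. So it was for the Igf2bp1 site shown, at -21.5 kcal/mol with let-7e and -24.1 kcal/mol with let-7d. For Hmga2 the energies were -16.5 kcal/mol with let-7e and -16.4 kcal/mol with let-7d, and for Map4k3 -13.5 kcal/mol with let-7e and -15.6 kcal/mol with let-7d. Lower energies mean more stable pairing, and these are computed values, not binding measured in the embryos. Other sites of these genes did not all keep the order. A second Lin28a site was at -16.7 kcal/mol with let-7e and -14.8 kcal/mol with let-7d. The let-7e energy minus the let-7d energy was 0.0, -2.0 and 0.9 kcal/mol at the other Trim71 sites. It was 2.0, 2.4 and -0.5 kcal/mol at the other Igf2bp1 sites, and -0.4, 3.0 and 1.0 kcal/mol at the other Hmga2 sites.

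The mouse ids of both groups were alike in most measures and unlike in the sex chromosomes of their cells. A cell carried 2212779 to 4950404 reads, with a mean per mouse id of 3004148 ± 113824 reads in Let7e (SD, n = 4) and 3395103 ± 589228 in Let7d (SD, n = 3). The sums ran from 6329464 to 24037593 reads. Spearman correlations between sums were 0.838 to 0.897 across the groups, against 0.84 to 0.886 within Let7e and 0.876 to 0.891 within Let7d. Replicate 1 of Let7e held 4 cells that carried Xist, the RNA of the inactive X chromosome, and 2 that carried Y-linked transcripts, while replicates 2, 3 and 4 held Y-carrying cells only. Among the Let7d mouse ids, replicate 1 held Y-carrying cells only and replicates 2 and 3 Xist-carrying cells only. Outside these groups, NC replicate 2 held 4 cells of each kind, and mi699a-5p replicate 4 held 3 Xist-carrying cells and 1 Y-carrying cell. By these transcripts a mouse id with both kinds of cells is not a single embryo. How many embryos a mouse id holds is not known. One pair of Let7d columns, both from replicate 2, differed by no more than sampling noise and was counted as 1 cell. Of 8 blastomere markers 7 were in the table and summed to 5620 to 6680 CPM (counts of a gene relative to the library total, on one common scale) in Let7e and 4090 to 5620 CPM in Let7d. Of 18 cumulus and granulosa genes 2 were measured, Amhr2 at 53.7 to 74.9 CPM in Let7e and 50.6 to 62.1 CPM in Let7d, and Nr5a2 at 86.7 to 303 CPM in Let7e and 65.3 to 143 CPM in Let7d. Of 15 sperm transcripts only Odf2 was, at 5.02 to 36.7 CPM in Let7e and 37.8 to 39.6 CPM in Let7d. Of 18 blood, skin and stromal genes only Pecam1 was, at 40.4 to 153 CPM in Let7e and 59.9 to 133 CPM in Let7d. The part of these genes in the results was not tested. The deposited counts are labelled as taken after a CPM filter, so genes missing from them may still have had reads. Each group has its own mouse ids, so a difference in handling between them and the effect of the injected microRNA cannot be told apart.

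Across 7886 genes the embryos that received let-7e and let-7d could not be separated by edgeR, and a small set of genes separated them in DESeq2. The quasi-likelihood test in edgeR called 0 genes at an adjusted p under 0.05 (0% of those tested, lowest adjusted p = 0.537), and DESeq2 called 8 of 7881 (0.102%). At an unadjusted p under 0.05 edgeR gave 425 genes, of which 220 were higher in Let7e (2.79%) and 205 lower (2.6%), and DESeq2 gave 504. The mouse ids of the groups did not overlap for 246 genes higher in Let7e (3.12%) and 233 lower (2.95%). Fold changes are given as log2 of Let7e over Let7d. Their median was 0.0067, with 4004 genes above 0 and 3882 below, and 595 genes lay beyond 1 in either direction. The median standard error was 0.43. In counts simulated on these sums, the edgeR step recovered 14% of 100 genes changed 2-fold and 58% of 100 genes changed 4-fold, so most 2-fold differences would be missed. Without the TMM scaling factors the median of all genes was -0.091.

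Messenger RNAs with let-7 sites were distributed almost as those without. Of 7570 genes with an annotated 3' UTR, 794 (10.5%) held the 7-base site, and their median log2 fold change was -0.03, with 374 above 0 and 420 below, against 0.011 for the 6776 genes without it. The 280 genes (3.7%) with CTACCTCA, complementary in letters to base 1 of let-7e, had a median of -0.054. The 293 genes (3.87%) with CTACCTCT, complementary in letters to base 1 of let-7d, had -0.061. For each gene the lowest energy over its sites was taken for each microRNA, so both values need not come from the same site. In 328 genes this lowest energy was lower with let-7e by at least 1 kcal/mol, and their median was -0.03. In 269 genes it was lower with let-7d by at least 1 kcal/mol, and their median was -0.04. Across the 794 genes the difference in energy and the log2 fold change had a Spearman correlation of -0.01. Non-overlapping mouse ids occurred in 2.9% of genes with the 7-base site in the higher direction and in 3.02% in the lower, near the background over all genes. Genes with the site had longer UTRs, with a median of 2409 bases, against 1041 bases for genes without it. Which 3' UTR the blastomeres use was not measured.

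**Figure D1:**
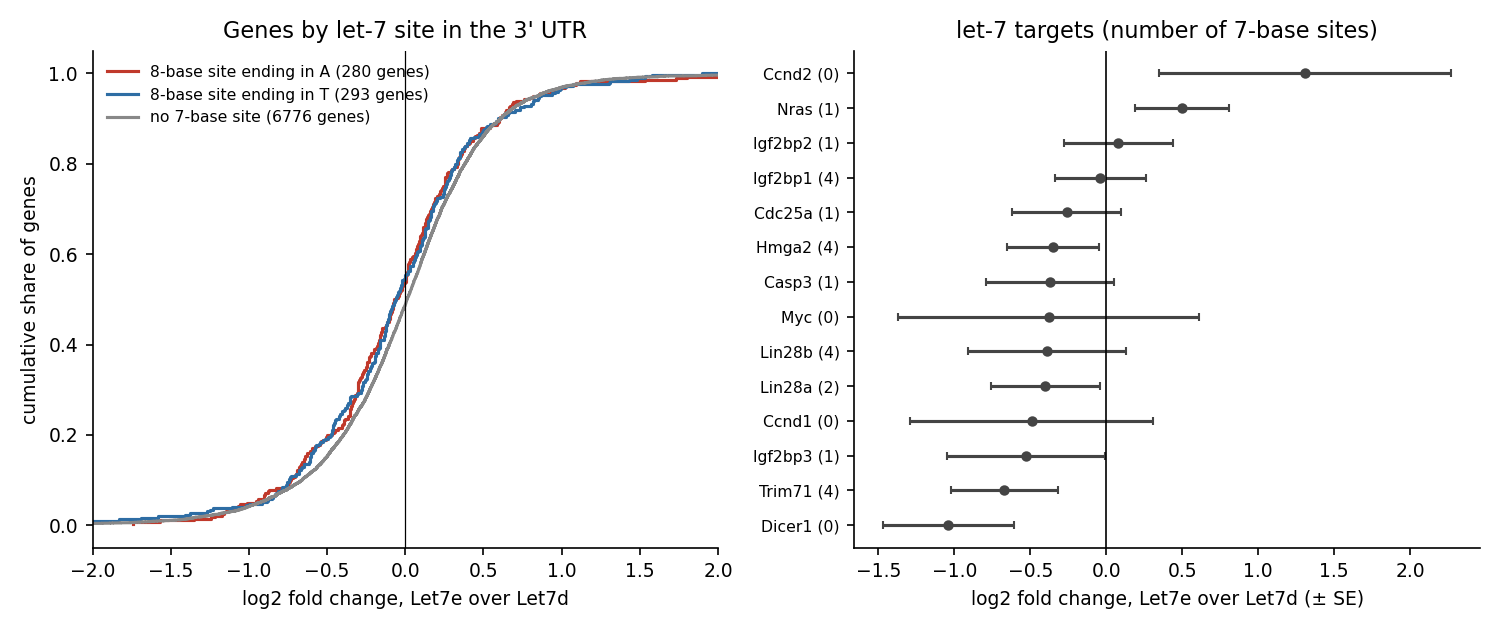
Left, cumulative share of genes by log2 fold change (Let7e over Let7d) for genes whose 3' UTR holds an 8-base site ending in A, an 8-base site ending in T, or no 7-base site. Right, log2 fold change ± SE of 14 measured let-7 targets, with the number of 7-base sites in brackets. The curves of the site classes run close together (medians -0.054, -0.061 and 0.011), and 11 of the 14 targets lie below 0.

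The best-known let-7 targets lay mostly below 0, that is, lower in Let7e, with no single gene past the edgeR test. Of 16 such targets 14 were measured, 11 below 0 and 3 above, and the mouse ids overlapped for all 14. Of the 10 that held a 7-base site 8 lay below 0. Trim71, an RNA-binding ubiquitin ligase of early embryos, has 4 sites and was at 236, 189, 155 and 347 CPM in Let7e replicates 1 to 4, against 495, 459 and 153 CPM in Let7d replicates 1 to 3 and 317 ± 97.0 CPM in NC (SD, n = 3). Let7d replicate 3 was as low as the lowest Let7e mouse id, and the log2 fold change was -0.67 ± 0.35 (SE). Hmga2, a chromatin protein and the textbook let-7 target, also has 4 sites and was at 156, 181, 90.3 and 78.1 CPM in Let7e, against 194, 168 and 123 CPM in Let7d. Its groups overlapped (log2 fold change -0.35 ± 0.30), and NC stood at 233 ± 37.2 CPM (SD, n = 3). Lin28a had -0.40 ± 0.36 and Lin28b -0.39 ± 0.52, and the insulin-like growth factor 2 messenger RNA-binding proteins Igf2bp1, Igf2bp2 and Igf2bp3 had -0.04 ± 0.30, 0.08 ± 0.36 and -0.53 ± 0.52. Nras, a small GTPase of growth signalling, was on the other side at 166, 237, 265 and 160 CPM in Let7e, against 168, 108 and 163 CPM in Let7d (0.50 ± 0.31).

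Over the wider list of 44 measured let-7 targets from the literature, 27 lay below 0 and 17 above, with a median of -0.11. Map4k3, a kinase of nutrient signalling, was the 1 member whose mouse ids did not overlap, 2.27% of the list against 3.12% of all genes. It was at 9.32, 18.4, 27.3 and 25.5 CPM in Let7e, against 3.15, 5.07 and 3.22 CPM in Let7d, a log2 fold change of 2.39 ± 0.69. This was the direction opposite to most of the list, and NC was at 14.6 ± 5.77 CPM (SD, n = 3). Dicer1, the enzyme that cuts microRNA precursors, was at 79.7, 37.4, 22.4 and 36.1 CPM in Let7e, against 130, 110 and 32.4 CPM in Let7d (-1.04 ± 0.43). Let7d replicate 3 again lay among the Let7e values. No CTACCTC was found in the Dicer1 3' UTR, although the gene is listed as a let-7 target. The cyclin Ccnd3 had -0.79 ± 0.36, with overlapping groups.

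The proteins that make and use microRNAs were measured in 36 genes, with 16 above 0, 20 below and a median of -0.093. Besides Dicer1, the Argonaute partner Tnrc6a was at 39.8, 12.1, 17.0 and 24.2 CPM in Let7e, against 46.0, 49.2 and 37.8 CPM in Let7d (-0.93 ± 0.37), and overlapped through Let7e replicate 1. The helicase Ddx17, a partner of the microprocessor, was at 86.6, 122, 129 and 139 CPM in Let7e, against 104, 62.5 and 34.8 CPM in Let7d (0.83 ± 0.34), and overlapped through Let7d replicate 1.

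DESeq2 called 5 genes higher in Let7e and 3 lower, and in all 8 the mouse ids of the groups were apart. Over all genes 3.12% were apart in the higher direction and 2.95% in the lower. The 8 were chosen by a test on the same sums, so their separation is no further support. None of the 7 with an annotated 3' UTR held the 7-base site, against 10.5% of all genes with one, and 7 genes are too few to compare with that share. The same fits in edgeR gave each of the 8 genes an adjusted p of 0.537 or more, so the call rests on the tool. Reads of mt-Nd1, Arpc1b and Tcf7l2 were found in all 20 Let7e cells and all 18 Let7d cells, and the share of cells with reads is given below for each of the other 5.

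Mt-Nd1, a mitochondrially encoded subunit of complex I, was at 13600, 9910, 5440 and 9060 CPM in Let7e, against 4300, 4490 and 3320 CPM in Let7d. Every Let7e mouse id lay above every Let7d one, the log2 fold change was 1.24 ± 0.26 (DESeq2 adjusted p = 0.00383), and NC stood between them at 6930 ± 1250 CPM (SD, n = 3). Arpc1b, a subunit of the Arp2/3 complex that nucleates branched actin, was at 277, 302, 268 and 244 CPM in Let7e, against 85.5, 139 and 145 CPM in Let7d. The Let7e values were close together, and the log2 fold change was 1.15 ± 0.25 (DESeq2 adjusted p = 0.00882). In NC it was at 236 ± 57.4 CPM (SD, n = 3). The list of Arp2/3 and actin assembly genes as a whole held 9 genes above 0 and 14 below.

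Gsc, the homeobox gene goosecoid known from the gastrula organizer, was at 34.0, 22.7, 10.9 and 12.3 CPM in Let7e, against 1.96, 2.56 and 3.0 CPM in Let7d. Reads were found in 16 of 20 Let7e cells and 5 of 18 Let7d cells, and the log2 fold change was 3.0 ± 0.75 (DESeq2 adjusted p = 0.013). Mpzl1, a cell-surface receptor that binds the phosphatase Shp2, was at 18.8, 12.1, 23.8 and 23.7 CPM in Let7e, against 4.44, 0.541 and 2.77 CPM in Let7d (2.92 ± 0.80, DESeq2 adjusted p = 0.0302). Reads were found in 13 of 20 Let7e cells and 7 of 18 Let7d cells. Tsga8, a testis-specific gene on the X chromosome, was at 17.9, 11, 14 and 3.01 CPM in Let7e, and in Let7d at 0 CPM in replicates 1 and 2 and 0.499 CPM in replicate 3. It was found in 15 of 20 Let7e cells and 1 of 18 Let7d cells (DESeq2 adjusted p = 0.00383), and with 11 reads in all of Let7d its fitted log2 fold change of 6.02 ± 1.68 depends on very few counts. Without Let7d replicate 3, which leaves Let7d at 0 reads, the fit gave 10.47. NC averaged 7.55 ± 3.63 CPM of Tsga8 (SD, n = 3).

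Of the 3 genes called lower in Let7e, Tcf7l2, a transcription factor that carries out Wnt signalling with beta-catenin, was the most abundant. It was at 62.1, 85.2, 42.1 and 57.9 CPM in Let7e, against 173, 164 and 257 CPM in Let7d, a log2 fold change of -1.68 ± 0.40 (DESeq2 adjusted p = 0.0302). NC lay with Let7e at 70.2 ± 40.5 CPM (SD, n = 3). Htr5b, a serotonin receptor gene, was at 5.72, 1.81, 2.12 and 4.94 CPM in Let7e, against 39.8, 42.7 and 10.4 CPM in Let7d (-3.08 ± 0.65, DESeq2 adjusted p = 0.00383). Here NC lay with Let7d at 25.3 ± 11.8 CPM (SD, n = 3), and reads were found in 6 of 20 Let7e cells and 15 of 18 Let7d cells. Trim61, a gene of the 2-cell stage list, was at 3.95, 0.843, 0 and 1.59 CPM in Let7e, against 27.8, 24.5 and 6.58 CPM in Let7d (-3.58 ± 0.93, DESeq2 adjusted p = 0.0163). It was detected in 8 of 20 Let7e cells and 17 of 18 Let7d cells. The list of Wnt, Nodal and BMP signalling genes, which holds Tcf7l2 and Gsc, had 8 members above 0 and 10 below. Trim61 belongs to a multigene family, and how reads shared between copies were counted is not given in the sources used here.

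**Figure D2:**
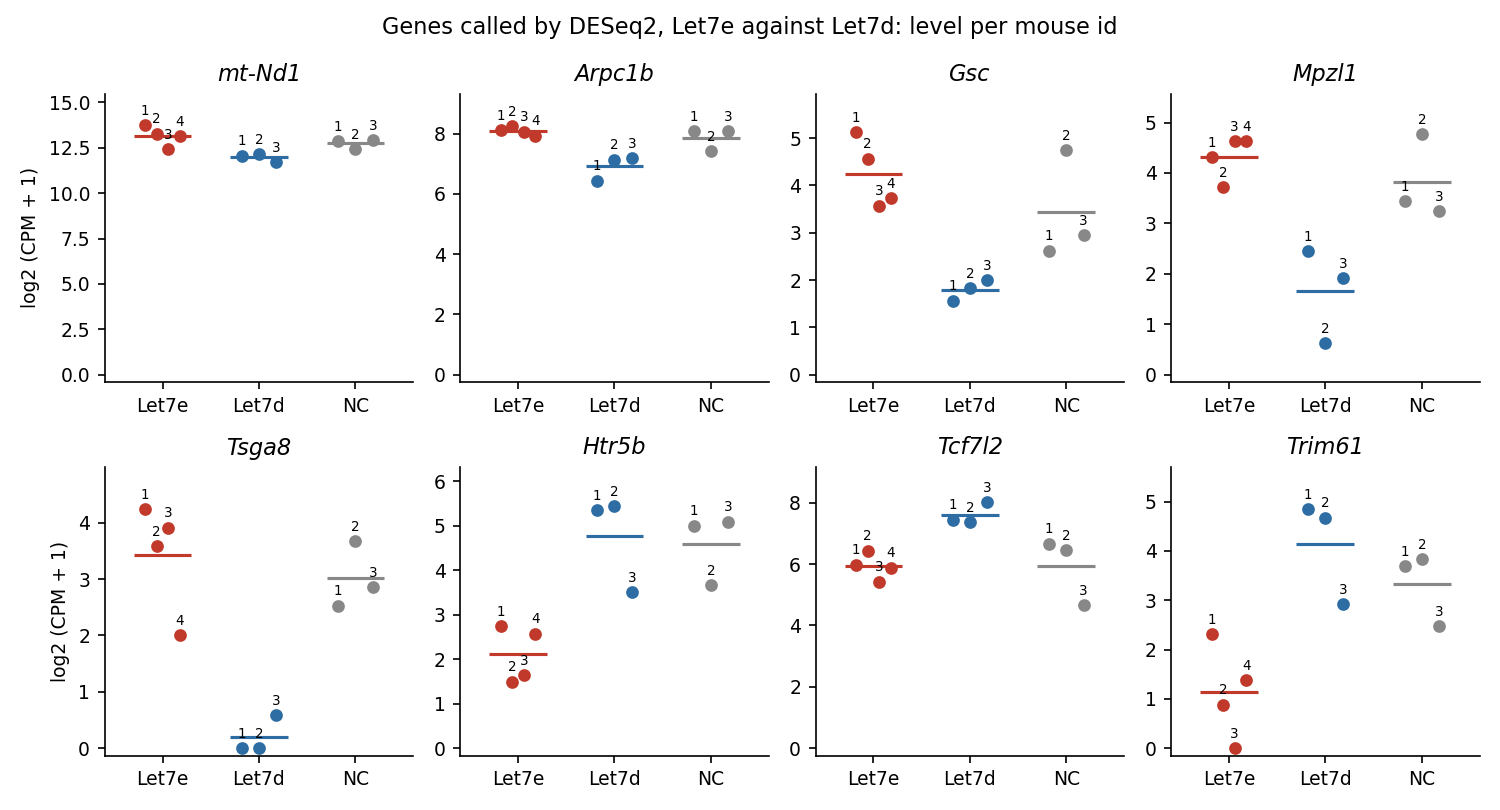
Level of the 8 genes called by DESeq2 in each mouse id, as log2 (CPM + 1), for Let7e (4), Let7d (3) and NC (3). Points are mouse ids with their replicate number and the line is their mean. Let7e lies above Let7d without overlap in mt-Nd1, Arpc1b, Gsc, Mpzl1 and Tsga8, and below it in Htr5b, Tcf7l2 and Trim61.

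The 20 genes with the smallest edgeR p, 10 in each direction, include these 8. In all 20 the mouse ids did not overlap, which a choice by p on the same sums favours. Rbm25, a splicing factor, was at 437, 440, 597 and 495 CPM in Let7e, against 228, 321 and 260 CPM in Let7d (0.87 ± 0.22). Slc25a4, the ADP/ATP carrier of the inner mitochondrial membrane, was at 501, 308, 282 and 660 CPM in Let7e, against 184, 222 and 127 CPM in Let7d (1.3 ± 0.34). Nop9, a factor of ribosome biogenesis, was at 258, 292, 205 and 319 CPM in Let7e, against 139, 140 and 150 CPM in Let7d (0.91 ± 0.24). The remaining genes higher in Let7e were mt-Nd2 (1.0 ± 0.28) and a gene named only by its identifier, ENSMUSG00000118642.1, at 78.5 to 92.7 CPM in Let7e and 19.1 to 46.5 CPM in Let7d (1.46 ± 0.37). Lower in Let7e were Med20, a subunit of the Mediator complex that links transcription factors to RNA polymerase II (-1.13 ± 0.30), the ubiquitin-conjugating enzyme gene Ube2h (-1.38 ± 0.37), the endoplasmic reticulum chaperone gene Pdia4 (-1.44 ± 0.39), and Pigm, a mannosyltransferase of GPI anchor synthesis (-1.19 ± 0.33). Rusc1 (-1.27 ± 0.34), Kank4 (-1.83 ± 0.51) and X-linked Mmgt1 (-1.12 ± 0.30) completed them. Of the 17 of these 20 genes with an annotated 3' UTR, 3 held the 7-base site, against 10.5% of all genes with one. They were Nop9 in the higher direction, and Pigm and Kank4 in the lower.

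Among less abundant genes the differences were wider. With a mean of at least 10 CPM and no overlap, the farthest genes higher in Let7e, besides Tsga8, Gsc and Mpzl1, were the scavenger receptor Scarf1, at 9.38 to 14.2 CPM in Let7e and 0 to 2.63 CPM in Let7d, and Tmem8, at 9.87 to 30.8 CPM in Let7e and 0.999 to 5.82 CPM in Let7d. The farthest in the lower direction were Ankra2, at 0 to 4.66 CPM in Let7e and 8.07 to 30.6 CPM in Let7d, Gata3, Tent5c, at 0 to 4.96 CPM in Let7e and 9.94 to 33.3 CPM in Let7d, Trim61 and Htr5b.

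Mitochondrially encoded messenger RNAs formed the gene group farthest above 0 among the autosomal and mitochondrial lists. These genes encode core subunits of oxidative phosphorylation (OXPHOS), the process by which mitochondria make ATP. All 7 measured genes lay above 0 with an unadjusted edgeR p under 0.05, against 2.79% of all genes. Of the 7 mouse ids, replicate 1 of Let7e was highest and replicate 3 of Let7d lowest in every one of these genes. They moved together in the same sums, so they do not count as 7 independent results. Of the 7, 5 were higher without overlap, against 3.12% of all genes, and the median log2 fold change of the 7 was 0.81. In the order of replicates they took 5.91%, 3.88%, 2.88% and 3.84% of the reads in Let7e and 2.66%, 2.84% and 1.79% in Let7d. The Let7e mouse ids were all higher, although replicate 3 of Let7e and replicate 2 of Let7d almost touched. NC was at 4.03%, 3.43% and 3.82%, inside the Let7e range and above every Let7d mouse id. The mi699a-5p mouse ids were at 3.38%, 4.89%, 4.32% and 2.77%, the last inside the Let7d range. The mean was 4.12% ± 1.28 in Let7e (SD, n = 4) and 2.43% ± 0.562 in Let7d (SD, n = 3), and the exact two-sided permutation test gave p = 0.0571, the smallest that 4 against 3 allows (adjusted p = 0.285 over 5 measures). Without replicate 1 of Let7e the difference in means was 1.1 percentage points, against 1.69 with it. In single cells the share ran from 1.19% to 6.65% in Let7e and from 1.45% to 4.5% in Let7d, so cells overlapped widely. Mt-Nd2 was at 4920, 2900, 2290 and 2640 CPM in Let7e, against 1550, 2130 and 1090 CPM in Let7d (1.0 ± 0.28). The complex III gene mt-Cytb was at 23500, 13200, 13000 and 14800 CPM in Let7e, against 11000, 10200 and 6360 CPM in Let7d (0.81 ± 0.28). Mt-Co1 of complex IV overlapped, at 7310, 4820, 2680 and 4420 CPM in Let7e, against 3840, 3400 and 2390 CPM in Let7d (0.58 ± 0.26). In NC the means were 3130 CPM for mt-Nd2, 15500 CPM for mt-Cytb and 5630 CPM for mt-Co1. Mt-Nd4, mt-Nd5 and mt-Nd6 had 0.74 ± 0.28, 0.72 ± 0.23 and 0.92 ± 0.31, and mt-Nd6 lies on the strand opposite to its neighbours, which reads without strand cannot tell apart. Ribosomal RNA genes took 8.72% ± 3.72 of reads in Let7e (SD, n = 4) and 5.92% ± 2.61 in Let7d (SD, n = 3; exact permutation p = 0.343), and the 50 most abundant genes took 23.5% in Let7e and 19.1% in Let7d (exact permutation p = 0.114), all with overlap. Reads per cell were fewer in Let7e, at the means given above. Their part in the result was not tested. With totals and scaling factors computed without these genes, as in each other setting tried, the median of the list stayed above 0, between 0.57 and 0.95. In the mouse ids without Xist-carrying cells, which leave 1 Let7d mouse id, it was 0.58.

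**Figure D3:**
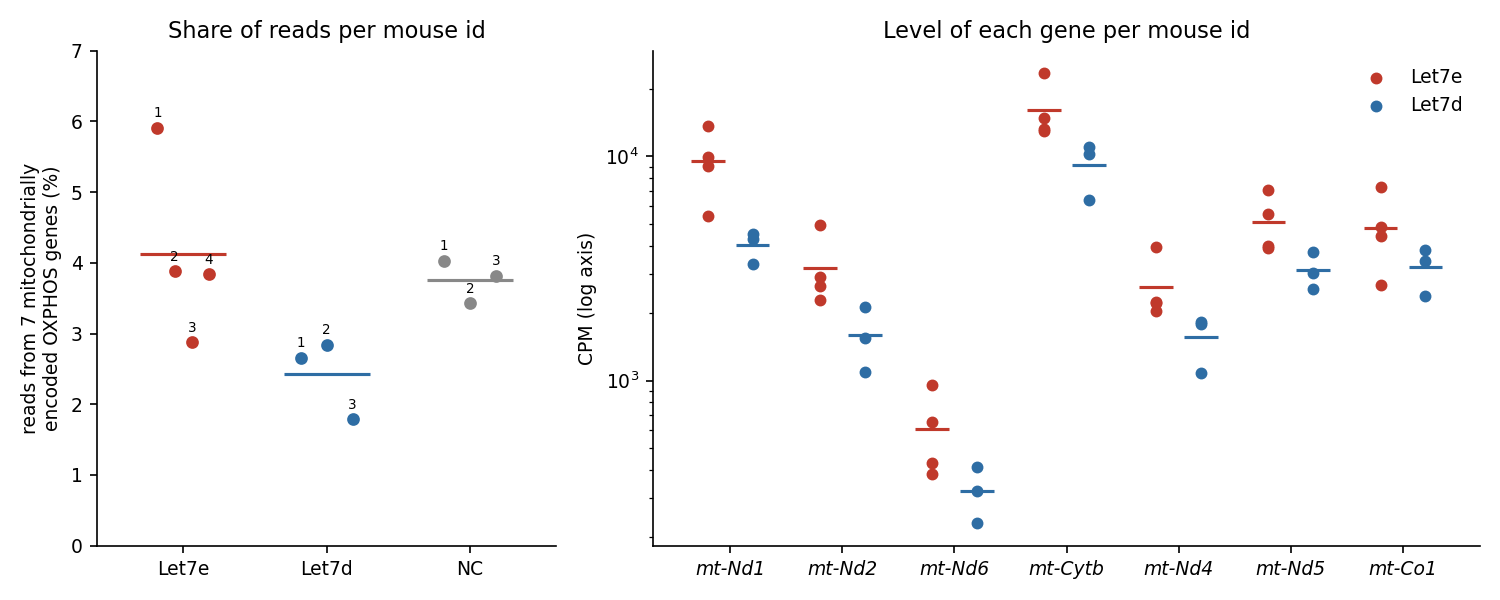
Left, share of reads from the 7 measured mitochondrially encoded OXPHOS genes in each mouse id of Let7e, Let7d and NC, with the mean as a line. Right, level of each gene in CPM on a log axis, Let7e left of Let7d. All Let7e shares lie above all Let7d shares, and replicate 1 of Let7e is the highest at 5.91%.

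Nuclear genes for mitochondria and ribosomes leaned the same way by much less. Of 76 mitochondrial ribosomal protein genes 61 lay above 0 (median 0.27), of 37 nuclear subunits of complex I 26 (0.19), of 38 nuclear subunits of complexes II to V 27 (0.14), and of 83 cytosolic ribosomal protein genes 68 (0.14). Few members stood out singly. The mitochondrial ribosomal list had 2 of 76 genes higher and 1 lower at an unadjusted edgeR p under 0.05. The complex I, complexes II to V and cytosolic ribosomal lists had 0. Over all genes 2.79% were higher and 2.6% lower at this p, so no list held more such genes than that background. Mrpl12 was at 317, 207, 313 and 313 CPM in Let7e, against 196, 212 and 187 CPM in Let7d (0.54 ± 0.24), with Let7e replicate 2 inside the Let7d range. The lean was widest in replicate 1 of Let7e, where the median member of the mitochondrial ribosomal list lay 0.41 log2 units above its mean over the 7 mouse ids, against 0.10, -0.06 and -0.09 in the other Let7e replicates and -0.13, -0.20 and -0.01 in Let7d. The cytosolic ribosomal list showed the same, with 0.31 in replicate 1 of Let7e, 0.01, -0.06 and -0.06 in the others, and -0.05, -0.24 and 0.07 in Let7d. Replicate 1 of Let7e also had the highest share of ribosomal RNA of these 7 mouse ids, 14%. In the fit limited to mouse ids without Xist-carrying cells, which leaves 3 Let7e mouse ids and 1 Let7d mouse id, the list of complexes II to V had a median of -0.07, the 1 of 20 other settings with a median below 0. Over these settings the complex I median ran from 0.0 to 0.42 and the cytosolic ribosomal one from 0.02 to 0.27, so in some the lean was absent or nearly so. The mitochondrial ribosomal median ran from 0.12 to 0.38. Genes for mitochondrial import, dynamics and biogenesis stayed near 0 (23 above and 15 below, median 0.054), with Tomm70a of the import receptor at 281, 303, 216 and 252 CPM in Let7e, against 176, 153 and 161 CPM in Let7d (0.69 ± 0.21). The TCA cycle list (median 0.026), glycolysis (-0.077) and fatty acid oxidation (-0.11) were close to 0 as well. Within glycolysis Aldoa was at 132, 231, 158 and 170 CPM in Let7e, against 113, 81.2 and 63.4 CPM in Let7d (1.01 ± 0.33), while Pkm, which acts near the end of the pathway, had -1.01 ± 0.41.

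Markers of the trophectoderm, the outer lineage that forms the placenta, tended to be lower in Let7e than in Let7d. Of 15 measured markers 10 lay below 0 and 5 above, with a median of -0.17, and 3 were lower without overlap, which is 20.0% of the list against 2.95% of all genes. These were Gata3, Fgfr2 and the water channel gene Aqp3, whose log2 fold change was -0.67 ± 0.57. Gata3, a transcription factor of this lineage, was at 19.5, 15.4, 0 and 2.68 CPM in Let7e, against 126, 48.0 and 59.4 CPM in Let7d, and at 47.3 ± 33.0 CPM in NC (SD, n = 3). The log2 fold change was -3.02 ± 0.91, and DESeq2 gave an adjusted p of 0.439. The receptor Fgfr2 was at 38.2, 38.5, 20.6 and 44.9 CPM in Let7e, against 86.1, 72.1 and 60.9 CPM in Let7d (-1.04 ± 0.41). The endocytic receptor Lrp2 had -1.70 ± 0.53 with overlap, at means of 25.8 CPM in Let7e and 84.3 CPM in Let7d. For both receptors NC lay nearer to Let7e, at 29.8 ± 20.2 CPM for Fgfr2 and 17.4 ± 11.1 CPM for Lrp2 (SD, n = 3). The list's median depended on the mouse ids, from -0.59 to 0.01 over the settings tried, and was above 0 without Let7d replicate 3.

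The 22 measured pluripotency and inner cell mass markers had a median of 0.17, with 15 above 0 and 7 below. Klf2, a transcription factor of naive pluripotency, was at 46.4, 38.1, 63.7 and 47.8 CPM in Let7e, against 11.5, 32.0 and 18.2 CPM in Let7d (1.25 ± 0.40), with no overlap. Dppa3, a maternal factor that protects methylation in the zygote, was at 5750, 4420, 4760 and 4700 CPM in Let7e, against 3320, 3880 and 4590 CPM in Let7d (0.32 ± 0.21), with overlap. Gata6, of the primitive endoderm, overlapped (0.88 ± 0.44). The 16 maternal oocyte transcripts (median -0.07) and the 14 genes of the 2-cell stage (0.13) divided around 0. Of the 2-cell stage list, Trim43c, of a family of near-identical copies, was at 429, 321, 469 and 345 CPM in Let7e, against 159, 298 and 196 CPM in Let7d (0.85 ± 0.36), opposite to Trim61.

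Genes of mitosis leaned towards lower values in Let7e. Of 37 G2/M genes 27 lay below 0 and 10 above, with a median of -0.19 that kept its sign in all 20 other settings (-0.31 to -0.09), and 4 were lower without overlap (10.8% of the list, against 2.95% of all genes). The median deviation of the list from its mean over the 7 mouse ids overlapped between the groups, at -0.19, -0.09, -0.06 and -0.01 in Let7e and 0.29, -0.03 and 0.04 in Let7d. The fourth, beside those described next, was the cyclin gene Ccnb2, at a mean of 138 CPM in Let7e and 149 CPM in Let7d. Ect2, a factor needed for cytokinesis, was at 127, 169, 129 and 127 CPM in Let7e, against 228, 239 and 269 CPM in Let7d (-0.83 ± 0.28). Top2a, the topoisomerase of chromosome condensation, was at 227, 258, 237 and 183 CPM in Let7e, against 353, 424 and 312 CPM in Let7d (-0.68 ± 0.23). Bub1, a kinase of the spindle checkpoint, was at 93.0, 123, 118 and 122 CPM in Let7e, against 148, 220 and 200 CPM in Let7d (-0.73 ± 0.27). NC lay nearer to Let7e in all 3 genes, with means of 128, 258 and 90.2 CPM. The 36 S phase genes had a median of -0.078, and Cdc6, which loads the replicative helicase, had -0.52 ± 0.25. Blastomeres were not staged within the cell cycle, and the part of cell cycle position in these values was not tested.

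Compaction, adhesion and polarity genes (33 measured, median -0.041), heat shock proteins (19, 0.028), antioxidant enzymes (19, -0.13), proteasome subunits (44, 0.12) and factors of mitochondrial RNA handling and translation (35, 0.085) were within 0.2 of 0. Of the 44 proteasome genes 29 lay above 0, of 14 integrated stress response genes 10 (median 0.17) and of 22 p53 response genes 16 (median 0.19), and the median of the p53 list was -0.36 with the level of Y-linked genes as a covariate. Of the interferon response, 5 genes were measured, 3 above 0 and 2 below. Of the 19 antioxidant genes 1 was lower without overlap (5.26%, against 2.95% of all genes), the peroxiredoxin gene Prdx6, which edgeR did not call. It was at 298, 336, 438 and 317 CPM in Let7e, against 484, 526 and 624 CPM in Let7d (-0.65 ± 0.20).

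**Figure D4:**
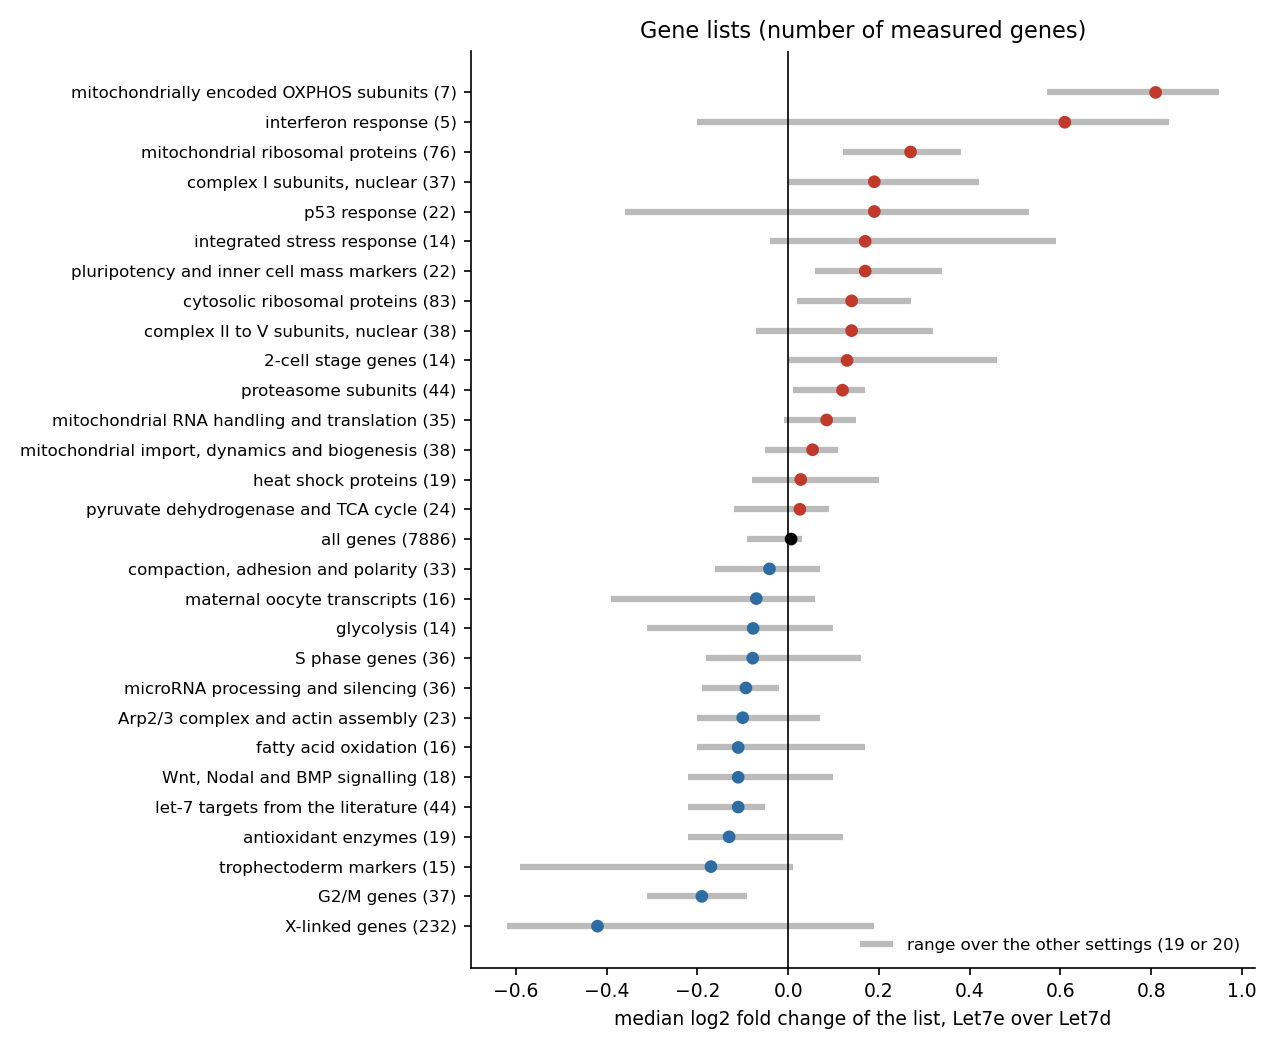
Median log2 fold change (Let7e over Let7d) of each gene list with at least 5 measured genes, apart from the Y-linked one, with the number of measured genes in brackets. Points are the values of the all-group edgeR fit (red above 0, blue below, black all genes) and bars run from the lowest to the highest value over 19 or 20 other settings. Of the lists drawn, mitochondrially encoded subunits lie farthest above 0 at 0.81 and X-linked genes farthest below at -0.42.

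Among the X chromosome and the 19 autosomes, the X chromosome had the median farthest from 0. Of 232 X-linked genes 190 were lower in Let7e and 42 higher, with a median of -0.42, while the medians of the autosomes ran from -0.048 to 0.1. At an unadjusted p under 0.05, 23 of the 232 X-linked genes were lower and 1 was higher. Over all genes the shares were 2.6% lower and 2.79% higher. The level of these genes in a mouse id went with the kind of cells it held. The median X-linked gene lay 0.46 log2 units above its mean in replicate 1 of Let7e, which held Xist-carrying cells, and at -0.24, -0.35 and -0.21 in replicates 2, 3 and 4, which did not. In Let7d it lay at -0.24 in replicate 1, without Xist-carrying cells, and at 0.51 and 0.57 in replicates 2 and 3, which held no others. Lamp2, a lysosomal membrane protein gene, was at 660, 323, 502 and 328 CPM in Let7e, against 570, 1310 and 1010 CPM in Let7d (-1.09 ± 0.32). Mmgt1 was at 85.8, 53.7, 73.0 and 35.3 CPM in Let7e, against 93.9, 154 and 154 CPM in Let7d. With the level of Y-linked genes as a covariate the X-linked median was 0.19, and among mouse ids without Xist-carrying cells it was -0.05. Xist was at 368, 0, 5.23 and 0.251 CPM in Let7e, against 0, 389 and 514 CPM in Let7d. The 5 measured Y-linked genes mirrored it, apart from Kdm5d in Let7d replicate 1. Eif2s3y was at 9.97, 82.8, 45.6 and 63.1 CPM in Let7e, against 51.3, 0 and 0 CPM in Let7d. Kdm5d was at 6.49, 16.2, 30.4 and 22.6 CPM in Let7e, against 2.72, 0.64 and 0.182 CPM in Let7d. It was thus low in Let7d replicate 1 although that mouse id held Y-carrying cells only. Of the 8 genes called by DESeq2 only Tsga8 is X-linked, and it was higher in Let7e. In the fit with the covariate the log2 fold changes were 1.09 for mt-Nd1, 1.39 for Arpc1b, 3.05 for Gsc, 2.85 for Mpzl1, 9.55 for Tsga8, -3.32 for Htr5b, -1.65 for Tcf7l2 and -3.42 for Trim61, and edgeR again called 0 genes, with 390 at an unadjusted p under 0.05.

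**Figure D5:**
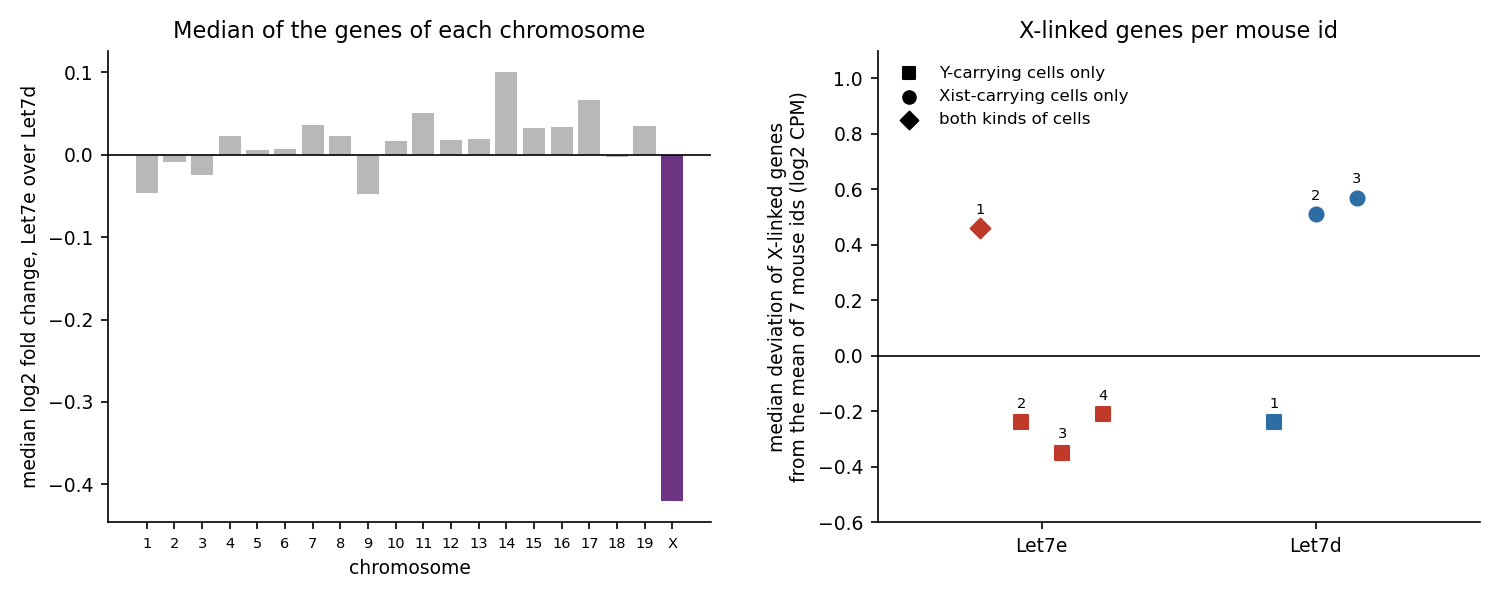
Left, median log2 fold change (Let7e over Let7d) of the genes of each autosome and of the X chromosome. Right, median deviation of X-linked genes from their mean over the 7 mouse ids, in log2 CPM, with the symbol giving the kind of cells in the mouse id. The X chromosome stands at -0.42, and the 3 mouse ids with Xist-carrying cells lie at 0.46 to 0.57 in either group while the other 4 lie at -0.35 to -0.21.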

How the data were processed

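Raw read counts per gene and cell were used as deposited by the authors, and the RPKM table was not. The deposited counts are labelled as taken after a CPM filter, so genes had been removed before deposit. All shares over all genes refer to the genes left, and measured means present among them. Per the submitters' processing notes, STAR and the build GRCm38.p6 were used, and the counting program is not given in the sources used here. Of 92 labelled cells 82 had a column, and the other 10 were not analysed here. The table held 7886 genes, of which 7884 matched GENCODE M21. Column pairs were compared by chi-square per gene, for genes with 20 or more reads in both together; 1 pair gave 1.05, against 28.7 for the next. Counts were summed by mouse id. EdgeR 4.0.16 (R 4.3.3) fitted all 14 sums (TMM, filterByExpr, which removed 0 genes, quasi-likelihood F test, 10 residual degrees of freedom, Benjamini-Hochberg at 0.05), and DESeq2 1.42.0 was the alternative. CPM values are scaled by TMM factors, list levels use log2 CPM with a prior count of 2, and errors of fold changes are standard errors. Reads are not independent molecules. A cell carried Xist or Y-linked transcripts at 50 CPM or more. Sites were searched on the sense strand, and pairing energies are from ViennaRNA 2.7.2. The edgeR step was tested on simulated data.

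Members and gene lists were chosen with earlier results of these data known. Genes named are the 10 smallest edgeR p-values per direction, those called, the 3 smallest p-values of each list, known let-7 targets, Xist and Y-linked genes, the widest non-overlapping genes and genes with 2 or more 8-base sites; 1 known target is not reported here. Settings tried were other normalizations and filters, fewer samples, a replicate block, Y-linked level, cell thinning and leaving out each mouse id.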

Additional observations from a re-analysis of the deposited data

Results flagged for a closer look

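Within the 4 Let7e mouse ids, 13 of 135 values checked had 1 mouse id far from the other 3 by Dixon's test. Chance gives about 1 in 20 for independent, normally distributed values. The values checked include chosen genes that vary together in the same sums, so 13 cannot be set against that rate. Replicate 1 stood apart in 7 genes. It was high in mt-Nd4 (3960 CPM, others 2050 to 2250), in Atp5g3, a subunit gene of ATP synthase (136 CPM, others 49.0 to 54.1), and in the complex I subunit gene Ndufa2 (77.0 CPM, others 29.1 to 33.1). It was low in Pramel6 (247 CPM, others 455 to 504), the mitochondrial import channel gene Tomm40 (239 CPM, others 379 to 414), Tbrg4 (76.0 CPM, others 198 to 223) and Bub1 (93.0 CPM, others 118 to 123). Replicate 2 was high in Ect2 (169 CPM, others 127 to 129) and low in Mrpl12 (207 CPM, others 313 to 317). Replicate 3, which holds 2 cells, was low in Ube2h (24.5 CPM, others 82.4 to 102), in Amotl2, a gene of the Hippo pathway (29.9 CPM, others 85.1 to 99.5), and in Ifitm1 (0 CPM, others 5.61 to 12.2). Replicate 4 was low in Odf2 (5.02 CPM, others 26.8 to 36.7).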

How the results depend on the processing

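The edgeR count of genes was 0 in 18 of 20 other settings; DESeq2 gave 8, and leaving out Let7d replicate 2 gave 1 (2810004N23Rik, which the naming rule does not cover), so the range over the mouse ids left out was 0 to 1. Counts at an unadjusted p under 0.05 ran from 309 without Let7d replicate 2 to 509 without Let7e replicate 1, with 425 as reported and 313 with only the 7 Let7e and Let7d sums. The difference in mitochondrially encoded share, 1.69 percentage points, ran from 1.1 without Let7e replicate 1 to 2.11 without Let7e replicate 3. Replicate numbers did not pair samples (correlations of deviations -0.0465, -0.0647 and 0.0203); with the replicate block edgeR called 0 genes, with 489 at an unadjusted p under 0.05. Of 2583 recomputed log2 fold changes of named genes 26 changed sign, in 16 genes, none of them called by either tool, and the cause was not tested. With only mouse ids without Xist-carrying cells, Psmd1 had 0.18, Atp5g3 -0.16, B2m -0.21, Bst2 -0.17, Eci2 -0.11, Rps4x 0.11, Pdha1 0.08, Ddx3y -0.36 and Xist 7.76. With Y-linked level as covariate, Nras had -0.06, Rps4x 0.19 and Xist 16.48, the last a fit to near-absent reads. Igf2bp1 had 0.03 with thinned cells and Igf2bp2 -0.02 with no scaling factors. Over the mouse ids left out, Nr6a1 ran from -0.08 to 1.4, Cdc25a from -0.51 to 0.05, Igf2bp1 from -0.25 to 0.07, Pecam1 from -0.71 to 0.33, Myc from -1.19 to 0.21 and Igf2bp2 from -0.22 to 0.3. Of 638 recomputed list medians 30 moved by more than the spread between mouse ids. With 4 and 3 sums most 2-fold differences are below detection.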
